A study of Mus musculus with 17 samples.

Results

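Cluster 1 is 1 of the 9 cell clusters that the single-cell RNA sequencing of the lesioned mouse brain was divided into. Its members are the mean levels of all genes in the cells of that cluster, given once for a 6-OHDA library and once for a 6-OHDA+NDST3 library. The table lists 26624 genes with usable names, of which 5833 were detected in cluster 1, meaning a mean of at least 0.1 natural log units in either library. A natural log unit here is a step on the scale ln(1 + transcripts per 10000 of the cell), averaged over cells, so a level of 0 means that the transcript was seen in no cell of the cluster. Of the detected genes, 236 led in cluster 1, that is, they stood at least 0.25 units above every other cluster in both libraries (4.05% of the detected genes).

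The mice were wild-type ICR animals, and at 8 weeks of age 6-hydroxydopamine (6-OHDA), a toxin taken up by dopaminergic neurons, was injected at 10 µg/µl into the substantia nigra. The 6-OHDA+NDST3 group received, 5 days after the lesion, 2 µl of a vector for NDST3, a heparan sulfate N-deacetylase/N-sulfotransferase, while saline was given in its place in the 6-OHDA group. The study's methods describe an AAV9 vector in which the ubiquitous CMV promoter drives human NDST3, and also a lentiviral CMV vector. They do not name the vector used for these libraries. Both single-cell libraries therefore carry the lesion and differ in the vector, with 1 library per group and no test between them. Bulk RNA sequencing of the same design, with 2 sham, 1 6-OHDA and 2 6-OHDA+NDST3 libraries, was used for the comparisons that can be tested, and the labels name the tissue of every library only as brain.

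Neutrophils are short-lived granulocytes that leave the blood early after tissue injury, carry preformed granules of antimicrobial proteins and proteases, and produce oxidants through the NADPH oxidase. Monocytes arrive with or after them and become macrophages in the tissue. The healthy brain parenchyma holds few of either cell, and its resident phagocyte is the microglial cell.

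The markers named for this cluster include a pair of neighbouring alarmin genes on chromosome 3, S100a8 and S100a9, and a pair of neighbouring C-type lectin receptor genes on chromosome 6, Clec4e and Clec4d. The stretches from 250 bases before to 50 bases after the start of these genes are shown because no other cluster exceeded 0.172 units for any of the 4 genes. They were taken from RefSeq on the GRCm38.p6 build, at chr3:90668821-90669120 on the plus strand for S100a8, chr3:90695672-90695971 on the minus strand for S100a9, chr6:123289822-123290121 on the minus strand for Clec4e and chr6:123261857-123262156 on the plus strand for Clec4d. Capitals mark matches on either strand to the C/EBP letters TTGCNNAA, the PU.1 letters GAGGAAGT and the TATA box, which is spelled TATAAA, and these matches do not overlap one another here.
S100a8: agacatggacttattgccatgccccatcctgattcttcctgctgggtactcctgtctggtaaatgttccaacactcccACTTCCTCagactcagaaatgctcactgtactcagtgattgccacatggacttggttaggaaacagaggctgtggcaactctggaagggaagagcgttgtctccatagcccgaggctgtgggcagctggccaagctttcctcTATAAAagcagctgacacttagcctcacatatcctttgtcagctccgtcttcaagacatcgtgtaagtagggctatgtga
S100a9: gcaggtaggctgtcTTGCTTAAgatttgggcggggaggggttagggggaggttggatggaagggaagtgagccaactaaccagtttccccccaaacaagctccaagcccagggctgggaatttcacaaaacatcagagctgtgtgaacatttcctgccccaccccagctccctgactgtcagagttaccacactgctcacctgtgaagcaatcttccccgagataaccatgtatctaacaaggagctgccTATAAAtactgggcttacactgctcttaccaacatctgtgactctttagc
Clec4e: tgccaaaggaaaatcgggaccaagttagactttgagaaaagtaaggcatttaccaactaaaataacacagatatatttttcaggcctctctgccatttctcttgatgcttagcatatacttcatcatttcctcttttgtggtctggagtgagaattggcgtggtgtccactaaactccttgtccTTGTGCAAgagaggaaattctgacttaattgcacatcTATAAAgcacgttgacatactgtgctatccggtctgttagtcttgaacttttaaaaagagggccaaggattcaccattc
Clec4d: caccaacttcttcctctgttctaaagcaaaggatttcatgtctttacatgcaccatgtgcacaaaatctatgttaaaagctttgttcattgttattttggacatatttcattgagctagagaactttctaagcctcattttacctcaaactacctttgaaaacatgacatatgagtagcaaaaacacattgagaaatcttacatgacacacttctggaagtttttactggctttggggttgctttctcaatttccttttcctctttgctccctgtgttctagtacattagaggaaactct
S100a8 held a PU.1 match on the strand opposite to the gene with its first base at -172 from the gene start and a TATA box at -30. Clec4e had a C/EBP match on the strand opposite to the gene at -66 and a TATA box at -29. S100a9 had a C/EBP match at -236 and the letters TATAAA at the annotated start itself. Clec4d held none of these letters in the window. Over all 7 label markers, 5 had TATAAA (71.4%), compared with 36 of the 192 leading genes with a promoter sequence (18.8%) and 4473 of all 32851 promoters (13.6%). These shares count the letters anywhere in the window. In Wfdc17 they began at -3 and in Cebpb at 22, and in S100a9 they began at the start. The C/EBP letters occurred in 18.8% of the leading genes and 10.8% of all promoters, and the PU.1 letters in 10.4% and 3.2%. For the AP-1 letters TGANTCA the shares were 11.5% and 7.81%. A gene with several annotated starts counts as holding a match when any of its promoters does, and by gene the shares over all 27025 genes were 15.7% for TATAAA, 12.2% for C/EBP, 3.69% for PU.1 and 8.97% for AP-1. These matches describe letters in the sequence and not binding.

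The label markers stood out in cluster 1 in both libraries. S100a9, the partner of S100a8 in the calcium-binding heterodimer calprotectin, was at 1.87 in the 6-OHDA library and 1.90 in the 6-OHDA+NDST3 library, and no other cluster exceeded 0.051. The level of S100a8 was 1.34 and 1.38, against at most 0.065 elsewhere. Both alarmins were thus close to 0 outside the cluster and moved by 0.03 and 0.05 between the libraries. Clec4e, which encodes the receptor Mincle for mycobacterial glycolipids and dead cells, was at 1.99 and 1.76, with cluster 3 next at 0.17 and 0.16. Its neighbour Clec4d, a receptor of the same pathway, was at 1.65 and 1.64, again followed by cluster 3 at 0.15 in both libraries. Cd44, the hyaluronan receptor, and Cebpb, a transcription factor of emergency granulopoiesis and inflammation, were higher still but less restricted. For Cd44 the levels were 2.47 and 2.53, against 0.84 and 0.93 in cluster 3. Cebpb was at 3.25 and 3.49, and other clusters reached 2.16 and 2.20. Wfdc17, a secreted whey acidic protein of activated phagocytes, had the smallest lead of the 7, at 0.83 and 0.65 against 0.45 and 0.31 in cluster 3. None of the 7 passed 0.25 in the difference between libraries, where Cebpb came nearest with +0.24 and Clec4e with -0.23. Because the cells were clustered on these same genes, the leads describe the cluster and were not tested.

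**Figure D1:**
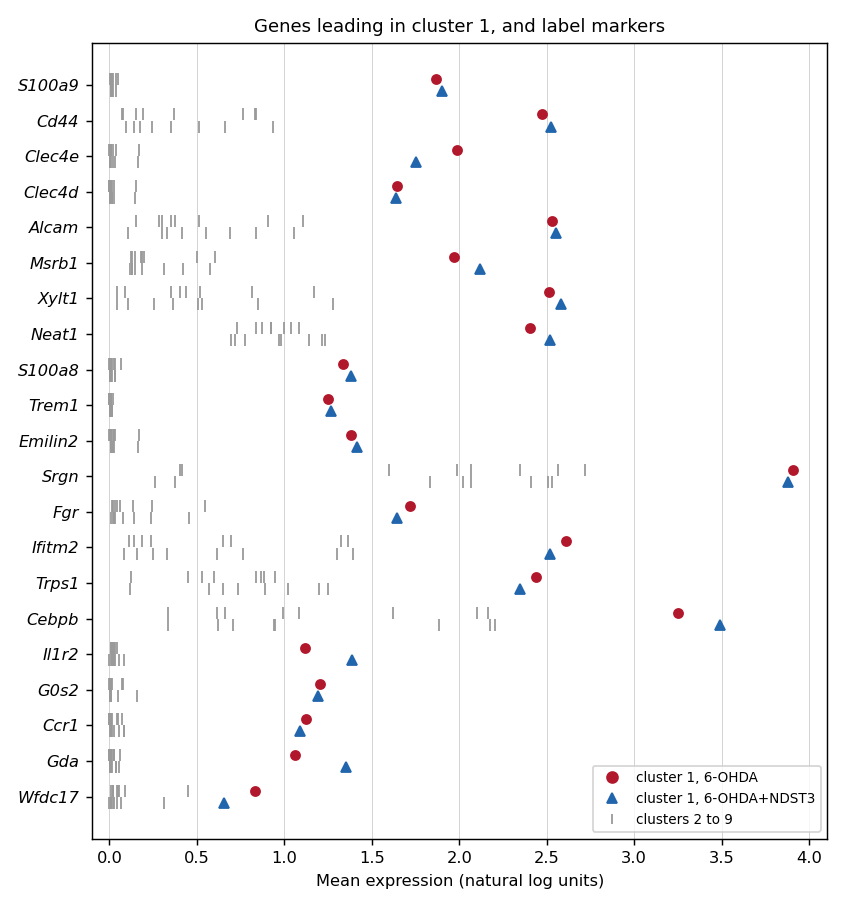
Mean expression in natural log units (horizontal axis) of the 20 genes with the largest lead in cluster 1 and of Wfdc17 (rows), with circles for the 6-OHDA library, triangles for the 6-OHDA+NDST3 library and grey ticks for clusters 2 to 9 in each library. In all 21 rows both cluster 1 symbols lie to the right of every tick, and S100a9, at 1.87 and 1.90, stands far from ticks that reach 0.051.

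Of the 20 genes with the largest lead, 6 were label markers. The others included Trem1, an activating receptor that amplifies Toll-like receptor signals in neutrophils and monocytes, at 1.25 and 1.27 with other clusters near 0. Il1r2, the decoy receptor that binds interleukin-1 without signalling, was at 1.12 in the 6-OHDA library and 1.39 in the 6-OHDA+NDST3 library, and at most 0.081 elsewhere. The chemokine receptor gene Ccr1 was at 1.13 and 1.09, and G0s2, an inhibitor of triglyceride lipase, at 1.20 and 1.19. In the other 8 clusters these 4 genes were under the detection level, except G0s2 at 0.16 in cluster 2 of the 6-OHDA+NDST3 library. Gda, guanine deaminase, was at 1.06 and 1.35, Emilin2, an extracellular glycoprotein, at 1.38 and 1.41, and Fgr, a Src-family kinase downstream of integrins and Fc receptors, at 1.72 and 1.64. Srgn, the core protein of the granule proteoglycan serglycin, had the highest level of the 20, at 3.91 and 3.88, although cluster 4 also reached 2.72 and 2.53. Alcam (2.53 and 2.55), Xylt1 (2.51 and 2.58), Ifitm2 (2.61 and 2.52), Trps1 (2.44 and 2.35), Neat1 (2.41 and 2.52) and Msrb1 (1.97 and 2.12) were high in cluster 1 and present at lower levels in several others. At a stricter lead of 0.5 units 92 genes remained leading, and 20 led by at least 1 unit.

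Levels of cell type marker lists describe cluster 1 but cannot test a neutrophil-like name for it, as the lists were chosen with earlier results known. The neutrophil list also holds Il1r2, G0s2 and Trem1, which are among the genes with the largest lead in cluster 1. The neutrophil markers were highest in the cluster, but not every defining neutrophil gene was detected. All 18 neutrophil markers were highest in cluster 1 in both libraries, 13 of them were detected and 9 led by at least 0.25 units. Their summed level was 9.35 and 9.82, against no more than 1.53 in any other cluster. Csf3r, the receptor for granulocyte colony-stimulating factor, was the highest of the list at 1.52 and 1.50, but it led by only 0.04. Hdc, histidine decarboxylase, was at 1.40 and 1.32 and led by 0.74. Cxcr2, the receptor through which CXC chemokines recruit neutrophils, was at 0.68 and 0.56. The resistin-like Retnlg was at 0.40 in both libraries and Mmp9, the gelatinase of tertiary granules, at 0.45 and 0.36. By contrast, the surface antigen gene Ly6g was at 0.03 and 0.07, and the secondary granule genes Camp (0.03 and 0.07), Ngp (0.03 and 0.09) and Ltf (0.07 and 0.09) were also under the detection level. The azurophil protease and peroxidase genes Mpo, Elane, Prtn3 and Ctsg, which are transcribed in the bone marrow, lay at or near 0.

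Monocyte genes were present as well, and their summed level was close to that of the neutrophil list. It was 9.20 and 9.47 in cluster 1, against no more than 5.26 in any other cluster. All 13 monocyte markers were detected in cluster 1, but 6 led there at all and 4 by 0.25 or more, namely Treml4 (0.87 and 0.80), Ifitm6 (0.61 and 0.66), Ace (0.57 in both libraries) and Chil3 (0.27 and 0.33). Treml4 and Ace mark the non-classical, patrolling monocyte, while Chil3 is a chitinase-like protein of monocytes and neutrophils. Cd14, the lipopolysaccharide co-receptor, was at 3.09 in both libraries, only 0.09 above the next cluster. The classical monocyte genes Ly6c2 (0.15 and 0.19) and Ccr2 (0.35 and 0.38) did not lead, as cluster 4 was at 0.46 and 0.34 for Ly6c2 and at 0.63 and 0.38 for Ccr2. Since the values are means over cells, neutrophil and monocyte genes held by the same cells and by different cells of the cluster cannot be told apart.

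**Figure D2:**
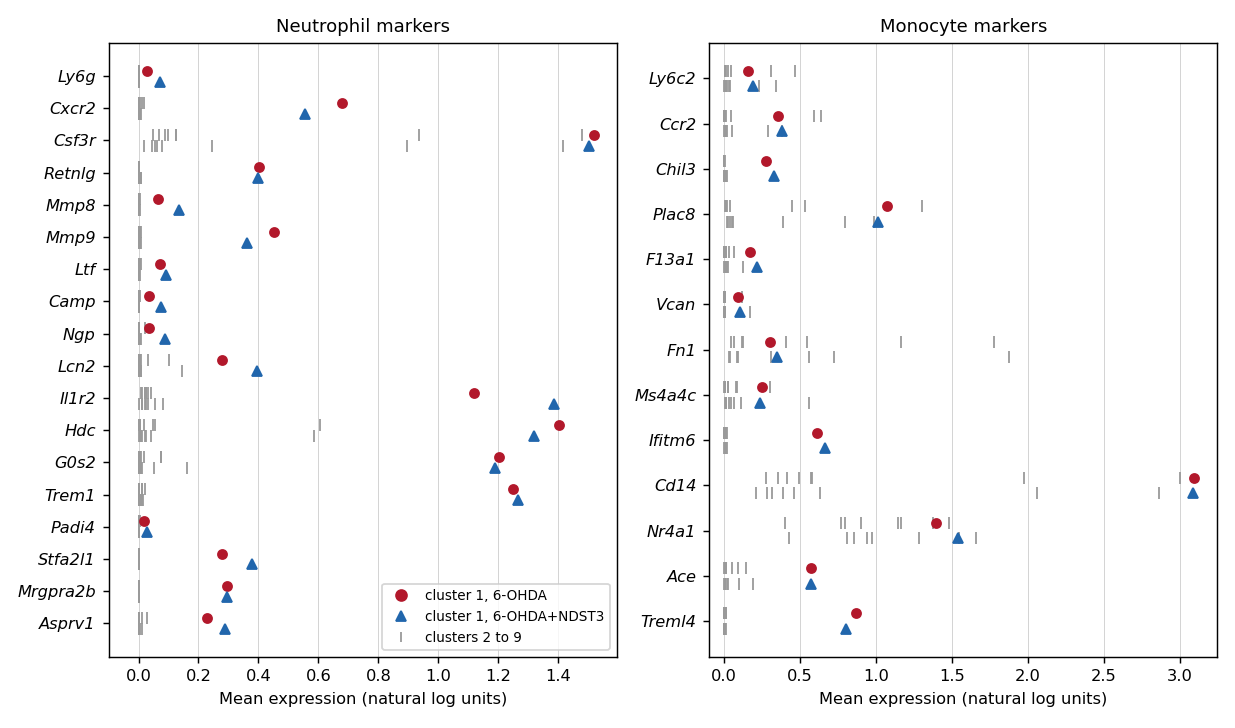
Mean expression in natural log units (horizontal axes) of 18 neutrophil markers (left) and 13 monocyte markers (right), with circles for cluster 1 in the 6-OHDA library, triangles for the 6-OHDA+NDST3 library and grey ticks for clusters 2 to 9. Every neutrophil marker is highest in cluster 1, though Ly6g, Camp and Ngp lie under 0.1, and several monocyte markers such as Ccr2 and Fn1 have ticks to the right of the cluster 1 symbols.

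None of the 12 macrophage markers and none of the 9 microglia markers led in cluster 1, though some were well expressed there. Apoe, a lipid carrier and member of the macrophage list, was at 3.59 and 3.28, well below cluster 3, where it was at 6.22 in the 6-OHDA+NDST3 library, and Cbr2, Lyve1 and Folr2 were at 0 in both libraries. The macrophage list summed to 6.32 and 5.67 in cluster 1, to 17.9 and 18.6 in cluster 3, to 14.9 in both libraries in cluster 6 and to between 3.53 and 5.87 in the others. C1qa, a chain of complement C1q, was at 0.87 and 0.76, against 3.86 and 4.01 in cluster 3. All 5 detected macrophage markers and all 6 detected microglia markers were lower in the 6-OHDA+NDST3 library, and the summed level of the microglia list was 2.44 in the 6-OHDA and 1.78 in the 6-OHDA+NDST3 library. In cluster 1 the T cell list went from 0.109 to 0.323 in summed level and the B cell list from 0.467 to 0.689. The latter was mostly through the immunoglobulin gene Igkc (0.01 and 0.17), whose median difference in the other clusters was 0.12. The T cell, B cell and microglia shifts were mostly shared. The T cell sum rose in every other cluster and the B cell sum in every other cluster except cluster 9. The microglia sum fell in every other cluster except cluster 8. By contrast, the macrophage sum rose in cluster 3 and in cluster 8 (5.65 and 5.87), was nearly level in cluster 6 and fell in the others. Of the other lists, the dendritic cell genes summed to 0.889 and 0.540, the endothelial genes to 1.35 and 1.23, the mural and fibroblast genes to 0.330 and 0.269 and the erythroid genes to 0.963 and 0.650. Mbp was the one oligodendrocyte marker detected, at 0.81 and 0.83. No mast cell, basophil or eosinophil, NK cell, astrocyte, neuron, dopaminergic neuron or platelet marker reached the detection level in cluster 1. The part that RNA or cells of other types had in the differences below was not tested.

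Across 12247 genes detected in any cluster, the profile of cluster 1 was nearest to that of cluster 3 (r = 0.848 in the 6-OHDA and 0.834 in the 6-OHDA+NDST3 library), which expressed the C1q genes and Apoe. Cluster 8 followed (r = 0.808 and 0.792) and then the microglial cluster 6 (r = 0.793 and 0.794). These correlations run over genes of the same library, which are not independent, and describe likeness only.

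Some of the innate sensing genes led in cluster 1, where 4.05% of all detected genes did. Of 19 detected pattern recognition receptor genes, 8 led by 0.25 units or more, including besides Clec4e and Clec4d the lectins Clec4a1 (0.62 and 0.72), Clec4n (0.60 and 0.52) and Clec4a3 (0.75 and 0.72), the formyl peptide receptors Fpr1 (0.26 and 0.32) and Fpr2 (0.40 and 0.37) and the muramyl dipeptide sensor Nod2 (0.52 and 0.49). Toll-like receptor genes did not lead by that much, and Tlr2 was at 1.16 and 1.11, lower than in another cluster. The inflammasome gene Nlrp3 was at 1.42 and 1.39. Of 21 Fc and inhibitory receptor genes, all detected, 9 led. Besides Trem1 they were Trem3 (0.75 and 0.85), the CD300 family members Cd300a (1.70 and 1.75), Cd300ld (0.70 and 0.74) and Cd300lf (0.68 and 0.82), the paired immunoglobulin-like receptors Pilra (0.64 and 0.59) and Pirb (0.40 and 0.52), and Lilrb4a (1.19 and 1.22) and Lilr4b (0.90 in both). The shared adaptor genes Tyrobp (3.48 and 3.39) and Fcer1g (3.04 and 2.89) were the highest of the list and led by 0.13 and 0.20. No gene of either list changed by 0.25 units between the libraries, a limit that only 0.72% of all detected genes passed.

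Effector genes were uneven, and their counts stand beside the 4.05% of all detected genes that led. Of the 8 NADPH oxidase genes 7 were detected and 3 led, among them Ncf4, a cytosolic subunit (1.51 and 1.44), and Cybb, the catalytic subunit (1.54 and 1.49). Of 20 granule protein genes 9 were detected and 3 led, namely Mmp9, Chil3 and the protease inhibitor gene Slpi (0.45 and 0.56). Lysozyme, Lyz2, was the highest granule gene at 2.95 and 2.79 but was higher in another cluster, and lipocalin-2, Lcn2, was at 0.28 and 0.39. Among 11 S100 genes, 7 were detected and S100a6 was as high as S100a9, at 1.90 and 1.94, but with a lead of 0.05. No member of these 3 lists passed 0.25 between the libraries, a limit that only 0.72% of all detected genes passed.

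Cluster 1 was a site of interleukin-1 transcripts. Il1b, the main secreted form, was at 2.96 in both libraries and led by 0.50, and Il1rn, the receptor antagonist, was at 1.11 and 1.14 and led by 0.45. Il1rap, the signalling co-receptor, was at 0.73 and 0.77 and led by 0.46, whereas Il1a was at 0.26 and 0.29, below another cluster. The agonist, its antagonist, the decoy Il1r2 and the co-receptor were therefore all highest in the cluster. Tnf was at 0.83 and 0.75 and did not lead. Of 22 chemokine ligand genes 11 were detected, 2 led and 9 had positive differences, none of them past 0.25. Over all detected genes 4.05% led and 51.7% had positive differences. Cxcl2, a ligand of Cxcr2, was at 2.41 and 2.49 against 1.72 and 1.25 in cluster 3. Ccl6 was at 1.34 and 1.18, and the Ccr1 ligands Ccl3 (1.40 and 1.61) and Ccl4 (1.75 and 1.96) were higher in other clusters. Of the 14 chemoattractant receptor genes detected, 6 led by 0.25 units or more, among them C5ar1 for complement C5a (1.10 and 1.09) and Ptafr for platelet-activating factor (1.41 and 1.21).

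Of 19 adhesion genes 5 led in the cluster, where 4.05% of all detected genes did. They were Cd44, Emilin2, Itgal (1.31 and 1.23), Itgb2 (1.24 and 1.25) and Vasp (1.55 and 1.37), the integrin pair being the chains of LFA-1. Of 18 apoptosis and survival genes, all detected, 2 led, namely Pim1, a survival kinase (2.83 and 2.70), and Mcl1, the BCL2 family member on which neutrophil survival rests (2.66 and 2.70). Of 16 cell cycle genes, only the replication clamp gene Pcna was detected, at 0.29 and 0.30. Among metabolic genes, the lactate exporter gene Slc16a3 led at 1.16 and 1.21, and of the lipid-handling genes Cd36 (0.89 and 0.88), Fabp4 (0.47 and 0.41) and Lgals3 (1.69 and 1.67) led. Alox5ap, the activating protein for leukotriene synthesis, was at 1.68 and 1.47, and coagulation factor X, F10, was at 0.53 and 0.62. Ndst3 itself was at 0.002 in the 6-OHDA library and at 0 in the 6-OHDA+NDST3 library, against 0.63 and 0.72 in cluster 5, and Ncoa7 was at 0.16 in both. The table lists mouse genes, so human NDST3 carried by a vector would not be measured by these values.

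Between the libraries the profile of cluster 1 differed little. The levels of the detected genes correlated with r = 0.989, the median difference was 0.0026 units, and 5034 genes (86.3%) differed by less than 0.1. In the 6-OHDA+NDST3 library 17 genes were higher by 0.25 units or more (0.291% of the detected genes) and 25 were lower (0.429%). Genes just inside this limit were Gab2 (+0.25) and Apoc1 (-0.25), and Cebpb (+0.24) and Clec4e (-0.23) were outside it. The same limit was passed by 16 to 361 genes in the other clusters, or 0.209% to 5.44% of those detected there, and by 0.72% in cluster 1. With 1 library per group these counts have no error, and 38 of the 42 genes had the same sign as the median difference of the other 8 clusters.

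Among the genes that rose, Nup98, a nuclear pore component, went from 0.77 to 1.13. Ccnd3, cyclin D3, went from 0.68 to 1.02, and Entpd1, the ectonucleotidase CD39 that removes extracellular ATP, from 1.20 to 1.54. For these 3 genes the difference was 0.34 to 0.37, while the median difference of the other clusters was 0.02 to 0.06. Thbs1, the matrix glycoprotein thrombospondin-1, rose from 0.49 to 0.81. Slc7a11, the cystine transporter that supplies glutathione synthesis, rose from 0.94 to 1.25, and in the other clusters its median difference was near 0. Of the 22 myeloid transcription factor genes Klf2 (1.05 and 1.34) and Ets2 (1.39 and 1.67) rose and none fell. Il1r2 and Gda rose by 0.27 and 0.29, and Mbnl2, from 1.69, and Fndc3b, from 1.40, by 0.31 and 0.30. Of the 236 leading genes 6 rose and none fell, but a leading gene had to lead by 0.25 in both libraries, so a gene that moved far could lose its place. Gngt2 fell and was left out in this way, as its lead was 0.46 in the 6-OHDA and 0.24 in the 6-OHDA+NDST3 library, and so was Fndc3b, which rose, with leads of 0.25 (just under the limit) and 0.59.

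Ribosomal protein genes made up 10 of the 25 genes that fell and none of the 17 that rose. Rps3a1 went from 2.40 to 2.05 and Rpl10a from 1.75 to 1.45. Over the 81 ribosomal protein genes detected in cluster 1 the median difference was -0.14 and 76 were below 0, with a median level of 2.03 in the 6-OHDA and 1.85 in the 6-OHDA+NDST3 library. The medians of the same genes in the other clusters ran from -0.10 in cluster 3 to +0.14 in cluster 9. Mitochondrially encoded genes had a median difference of -0.08 in cluster 1, with 11 of 12 below 0, and between -0.04 and +0.23 in the other clusters. Depth per cell and the number of cells in the cluster are not given in the table, and their part in these shifts was not tested.

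The single largest fall was that of Cst3, the protease inhibitor cystatin C, from 3.67 to 3.13, a difference of -0.55 when the median of the other 8 clusters was -0.28. Tmsb4x, the actin-sequestering thymosin beta-4, went from 4.64 to 4.31, a difference of -0.34 with a median of -0.15 in the other clusters, relative to which it was -0.18. Gngt2, a G protein gamma subunit, went from 1.31 to 0.97, and Gdpd3, a glycerophosphodiester phosphodiesterase, from 1.01 to 0.67. Apoe (3.59 and 3.28) and Spp1, osteopontin (0.79 and 0.49), were the lipid-handling phagocyte genes that fell, and their median differences in the other clusters were -0.28 and -0.33. Relative to that median the difference of Spp1 was +0.03. Xist went from 1.40 to 1.08, with a median of -0.16 elsewhere. Bcl2a1b (1.90 and 1.64) and Bcl2a1d (1.20 and 0.89), anti-apoptotic genes of a near-identical family between which reads may be shared, fell as well, and their values are uncertain for that reason. Relative to the other clusters their differences were -0.22 and -0.21, under the limit. No member of the S100, pattern recognition receptor, NADPH oxidase, chemokine, cytokine ligand, Fc receptor, NF-kB, immediate early, interferon-stimulated or glycolysis lists changed by 0.25 units in either direction. Over all detected genes only 0.72% did, so the lack of such members says little about these lists.

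**Figure D3:**
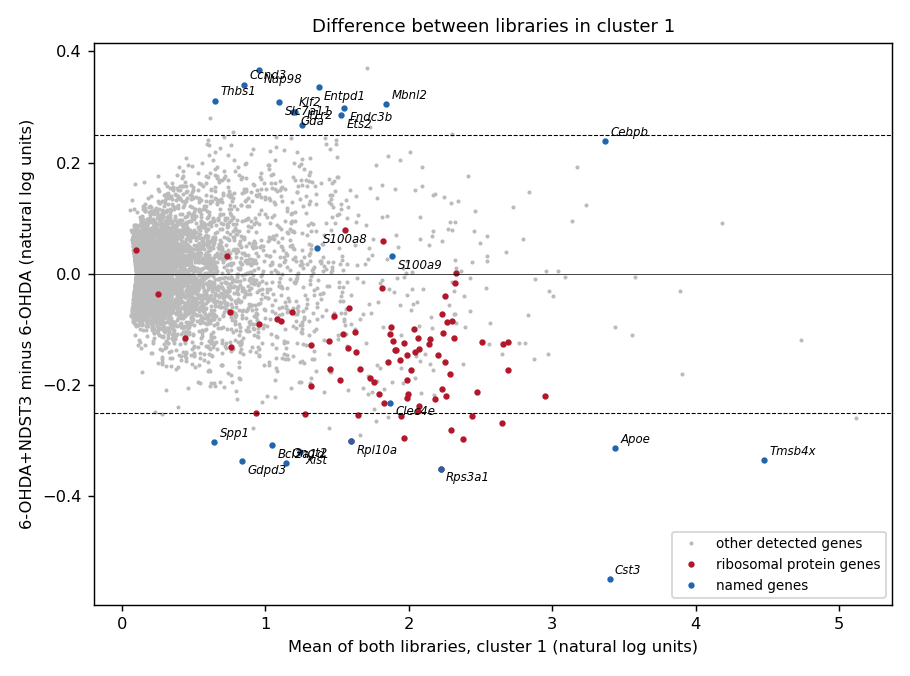
Difference between the libraries (vertical axis, 6-OHDA+NDST3 minus 6-OHDA, natural log units) against the mean of both (horizontal axis) for the 5833 genes detected in cluster 1, with ribosomal protein genes in red, named genes in blue and dashed lines at the limit of 0.25 either way. Most red points lie below 0, Cst3 lies lowest at -0.55, and Nup98 lies at +0.37.

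MHC class II genes, which present antigen to helper T cells, differed less between the libraries in cluster 1 than in the most similar clusters. In cluster 1 H2-Aa was at 0.71 and 0.82, H2-Eb1 at 0.50 and 0.71 and the invariant chain Cd74 at 1.51 and 1.66. None of the 6 detected genes passed 0.25 and the median difference was 0.08. In cluster 3, 6 of 8 genes passed it upward with a median of 0.98, and the summed level of the list went from 4.75 to 12.9, whereas in cluster 1 it went from 4.15 to 4.62. Cluster 6 had 5 of 6 genes past the limit (median 0.76) and cluster 8 had 4 of 6 (median 0.34). In all 8 other clusters the median was at least 0.13. The difference between clusters was not tested, as each rests on the same 2 libraries.

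**Figure D4:**
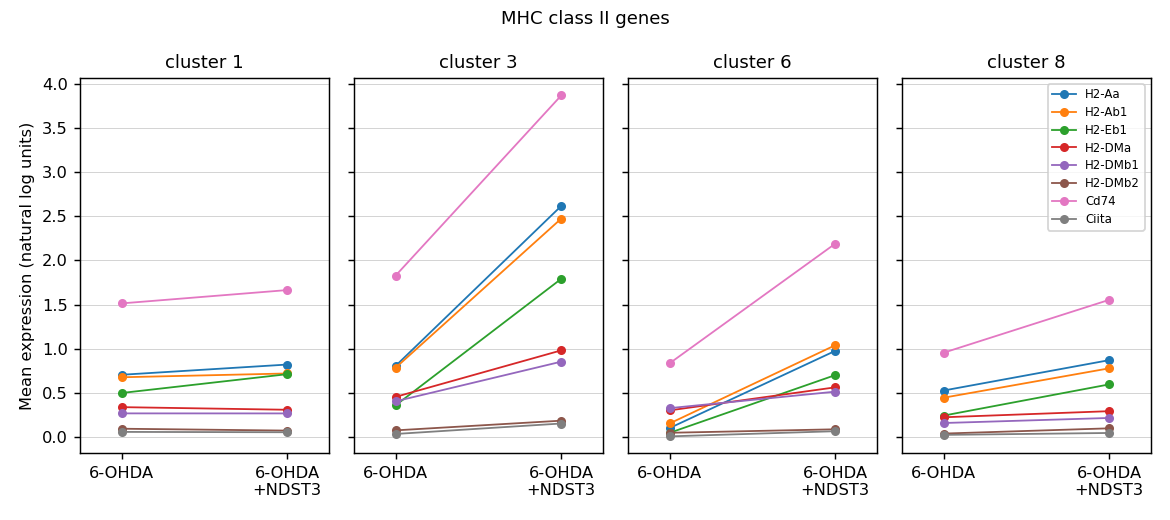
Mean expression in natural log units (vertical axis) of 8 MHC class II genes in the 6-OHDA and 6-OHDA+NDST3 libraries, in cluster 1 and in the comparison clusters 3, 6 and 8, with 1 line per gene. The lines of cluster 1 are nearly level, with Cd74 at 1.51 and 1.66, and those of clusters 3 and 6 climb.

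Whether the genes of cluster 1 differed between bulk brain samples was tested in the 5 bulk libraries, of 51003699 to 70533326 reads assigned to genes. In bulk tissue, fewer cells of a type and less RNA per cell cannot be told apart. As the 6-OHDA group has 1 library, edgeR took the spread from the sham and 6-OHDA+NDST3 pairs, and the contrasts of lesion with sham and of lesion with NDST3 against lesion share that library. S100a8, Clec4e and Clec4d were not analysed here in bulk. Of the 236 leading genes, 207 were tested.

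The leading genes were mostly higher after the lesion. With edgeR (quasi-likelihood fit, Benjamini-Hochberg adjustment over 19300 genes), 121 of the 207 rose in the 6-OHDA library against sham and 18 fell, with a median log2 fold change of 1.26. Over all genes tested 3625 rose (18.8%) and 3291 fell (17.1%), and the median was -0.0025. Without either sham library no gene of the whole table passed, so these calls depend on having both. All 4 label markers in the table rose.

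In CPM, the read count scaled to the library total, S100a9 was at 0.56 and 0.72 in sham, 3.70 after 6-OHDA and 0.79 and 1.57 with NDST3. The lesion library was the highest of the 5, with a log2 fold change over sham of 2.51 ± 0.50 (SE, edgeR adjusted p = 0.019). Cd44 was at 15.6 and 6.30 in sham, 176 after 6-OHDA and 35.5 and 69.3 with NDST3. Its log2 fold change was 4.02 ± 0.62 (SE, edgeR adjusted p = 0.011), and the NDST3 libraries lay between the other groups without overlap. Cebpb was at 3.46 and 3.56, 16.2, and 5.78 and 9.21 in the same order, a change of 2.20 ± 0.31 (SE, edgeR adjusted p = 0.0096). Wfdc17 was at 0.85 and 0.28, 7.28, and 1.13 and 2.92, a change of 3.71 ± 0.81 (SE, edgeR adjusted p = 0.024). Csf3r (3.50), Cxcr2 (3.05), Il1b (3.69), Il1rn (4.54), Cd14 (3.48) and Fgr (3.65) also rose on the log2 scale, with edgeR adjusted p from 0.0085 for Csf3r to 0.042 for Il1b. Among these, Csf3r and Cd14 led in cluster 1 by only 0.04 and 0.09. Not every gene that led in the cluster followed. Il1r2, G0s2, Gda, Alcam, Xylt1, Emilin2 and Neat1 did not pass, and Trem1, with 2 to 23 reads per library, had a log2 fold change of 3.34 ± 1.24 (SE, edgeR adjusted p = 0.094).

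**Figure D5:**
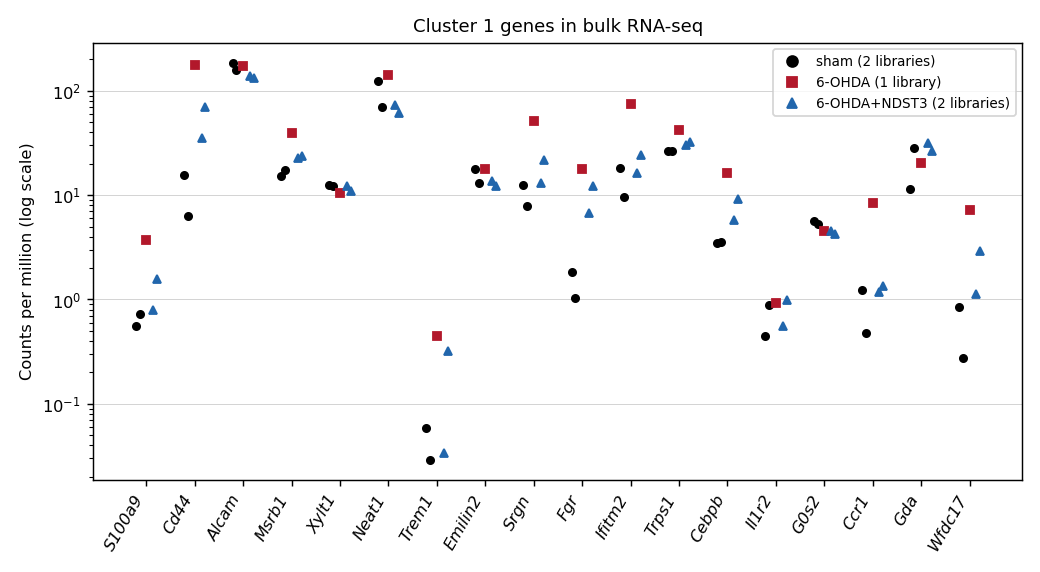
Normalised read counts in bulk RNA-seq (vertical axis, CPM on a log scale) of the 18 label markers and leading genes that were tested, with circles for the 2 sham libraries, a square for the 6-OHDA library and triangles for the 2 6-OHDA+NDST3 libraries. Cd44 stands at 176 in the 6-OHDA library and at no more than 69.3 in the others, whereas Xylt1 and G0s2 hardly separate.

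With NDST3 the leading genes were lower than in the 6-OHDA library more often than higher. By edgeR 41 of the 207 fell and 9 rose, with a median log2 fold change of -0.74, against 1271 of all genes that fell (6.59%) and 1748 that rose (9.06%). Markers of other cells moved in the same contrast. All 5 erythroid markers fell (median log2 fold change -2.43), as did 8 of 9 mural cell or fibroblast markers (-2.44), 4 of 8 endothelial markers (-0.69), 6 of 12 monocyte markers (-1.42) and 12 of 16 cell cycle genes (-1.86), whereas 6 of 10 neuron markers (0.90) and 4 of 8 dopaminergic neuron markers (2.29) rose. Their part in the fall of the leading genes was not tested. Ccr1 was at 1.24 and 0.48 CPM in sham, 8.35 after 6-OHDA and 1.19 and 1.36 with NDST3, and fell by 2.71 ± 0.55 on the log2 scale (SE, edgeR adjusted p = 0.042). Ifitm2, at 74.5 after 6-OHDA and 16.2 and 24.1 with NDST3, fell by 1.89 ± 0.42 (SE, edgeR adjusted p = 0.047). Msrb1, a methionine sulfoxide reductase, was at 39.3 after 6-OHDA and 22.8 and 23.7 with NDST3 and fell by 0.76 ± 0.14 (SE, edgeR adjusted p = 0.038). For these 3 the NDST3 libraries lay under the lesion library, and for Ccr1 they lay within the range of the sham libraries or just above it. The 4 label markers did not pass, with log2 fold changes of -1.11 to -1.85 and edgeR adjusted p from 0.068 for Cebpb to 0.15 for Wfdc17. Leaving out either sham library, or 6-OHDA+NDST3 replicate 1, left no leading gene past the threshold, and DESeq2 called 82 lower and 13 higher.

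Thbs1, Klf2 and Entpd1, which rose in the cells of cluster 1, had negative log2 fold changes in bulk with NDST3. Thbs1 was at 37.9 CPM in the 6-OHDA library and 5.90 and 9.77 with NDST3, and fell by 2.27 ± 0.43 on the log2 scale (SE, edgeR adjusted p = 0.038). Klf2, at 11.5 and then 4.69 and 5.23, fell by 1.21 ± 0.20 (SE, edgeR adjusted p = 0.035). For Entpd1 the log2 fold change was -0.89 ± 0.30 (SE, edgeR adjusted p = 0.098). All are expressed in other clusters too, and the share of cluster 1 in the bulk values was not tested.

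Against sham, no leading gene passed with NDST3. By edgeR 0 of 207 genes rose and 0 fell, as was so for all 19300 genes (0% in each direction), although 84 of the 207 and 2744 of all genes had an unadjusted p under 0.05. DESeq2 called 50 leading genes higher and 1023 genes in all. The median log2 fold change of the leading genes was 0.38, with 159 of 207 above 0.

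Lists of other cell types, myeloid and not, moved with the lesion in the same libraries, where 18.8% of all genes tested rose and 17.1% fell. Of 9 microglia markers 8 rose against sham by edgeR (median log2 fold change 2.59), as did 7 of 12 macrophage markers (median 3.08), 7 of 12 monocyte markers (median 1.64) and 3 of 9 neutrophil markers (median 1.44). Outside the myeloid lists, all 5 erythroid markers (median 1.85), 7 of 9 mural cell or fibroblast markers (2.03), 4 of 8 endothelial markers (0.60) and 14 of 16 cell cycle genes (2.68) rose, and 9 of 10 neuron markers (-1.19) and all 8 dopaminergic neuron markers (-4.41) fell. The bulk changes of the leading genes are therefore not shown to come from cells of cluster 1, and the part of each cell type was not tested. Of the 8 MHC class II genes 7 rose after the lesion, and with NDST3 none passed against the lesion library, where the median was -1.35.

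Histone H3K27 acetylation, a mark of active promoters and enhancers, and open chromatin by ATAC were given as 1 value per group, so they carry no error. None of the 7 label markers had an H3K27ac region within the distances listed, and 67 of the 236 leading genes had 102 such regions. The signal was higher with NDST3 than after 6-OHDA alone in 100 of the 102 (98.0%), but so it was in 10999 of all 11424 regions (96.3%). The gene names and distances are those listed with the regions, and they could not be checked, as the coordinates did not match GRCm38. At Ets2, listed at 49 bases after the start, the signal was 42.8 in sham, 44.0 after 6-OHDA and 65.6 with NDST3. At Msrb1, listed at 6 bases after the start, it was 6.34, 7.45 and 12.9. In ATAC, S100a8 was the label marker with a region, listed at -471 from the start, where the signal was 6.68 in sham, 3.75 after 6-OHDA and 6.75 with NDST3. Of the 27 ATAC regions of leading genes with both values, 17 were higher with NDST3 (63.0%), against 58.9% of all. The labels name the tissue of both assays as brain, and the share of cluster 1 cells in that material was not tested.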

How the data were processed

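Values for 9 clusters were deposited for the single-cell 6-OHDA and 6-OHDA+NDST3 libraries; the sham library was not analysed here. Per the study's methods, the authors used Chromium 3' chemistry 3.1, Cell Ranger 7.0.1 (mm10) and Seurat 4.3.0, dropping genes in under 3 cells and cells with under 200 or over 8000 genes or over 10% mitochondrial reads. The deposited values are natural log means, by the authors, of UMI counts scaled to 10000 per cell. The header calls them mean counts, but their back-transformed sums fit logs. Doublets were treated only by the upper gene limit, and cell barcodes were not analysed here. Of 26650 rows, 26 had names turned into dates and were dropped. No sample column was left unmapped.

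RNA-seq counts per gene were made by the authors with Trimmomatic 0.38, HISAT2 2.1.0 and StringTie 2.1.3b. They were tested with edgeR 4.0.16 (TMM, filterByExpr, all 5 libraries in 1 fit, adjusted p under 0.05). The same fit was run on simulated counts with an equal spread for all genes, which does not show how it performs on these libraries. DESeq2 1.42.0 was an alternative. The study's methods say in general that n counts biological replicates such as animals or cultures, but the labels tie no library to an animal, and p-values may measure only the spread between these libraries. H3K27ac and ATAC signal was deposited by the authors per region and group, with scaling not given in the sources used here. Its coordinates did not match the gene starts of GRCm38, so only the listed distances to the start are given. The start implied by a region lay within 1000 bases of the GRCm38 start for 3.57% of H3K27ac and 10.5% of ATAC regions with a gene in the reference.

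The cluster, its markers and all gene lists were chosen with earlier results of these data known. Named genes were the 7 label markers, the 20 largest leads, the 10 largest differences in each direction, and in each list the highest and most changed members, of which some are not reported here. Regions were named after their values were seen. Alternatives were other size and detection limits, centring, a replicate block and leaving out each library. Analyses ran in R 4.3.3 and Python 3.11.15.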

Additional observations from a re-analysis of the deposited data

How the results depend on the processing

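In cluster 1, with a size limit of 0.5 natural log units 0 genes were higher and 1 was lower, and at 1 log2 unit 0 were in either direction. After subtracting the median difference of the other 8 clusters 16 genes were lower, and without ribosomal and mitochondrial genes 15 were, while the count of higher genes stayed between 16 and 17 under the detection and centring alternatives. A lead of 0.5 left 92 leading genes, and a lead over the median of the other clusters gave 774. Of 40 named differences, all kept sign and side of the limit when centred, and relative to the other clusters 32 did, 7 fell under it and that of Spp1 turned to 0.027.

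In the RNA-seq contrast of lesion with sham, leaving out 1 library gave 0 to 126 leading genes higher, 0 to 19 lower and 0 to 7140 of all genes called, against 6916, with 0 when either sham library was left out. For lesion with NDST3 against lesion the ranges were 0 to 7 higher, 0 to 54 lower and 0 to 3163 of all genes, against 3019, and DESeq2 gave 82 lower and 5195 in all. For lesion with NDST3 against sham they were 0 to 6 higher and 0 to 111 of all, and DESeq2 gave 50 and 1023. The cause was not tested.

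Replicate numbers are shared between the sham and 6-OHDA+NDST3 libraries, but same-numbered libraries did not deviate together (r = -0.34), so the numbers were not used as pairs. With the replicate block, 48 leading genes were higher and 4 lower after the lesion (1796 of all), and 0 were called with NDST3 against lesion, in either direction or in all. With the crossed pairing, chosen after seeing the data, 80 leading genes were lower with NDST3 than after the lesion (4795 of all), and against sham 57 were higher (1194 of all).

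Of 483 values for single genes under 9 RNA-seq settings, 416 kept direction and side of the threshold, 41 lost and 19 gained significance, and 7 reversed. Those were, as log2 fold changes, Alcam for lesion against sham (-0.12 to 0.11 with 1 library left out, and 0.0020 without 6-OHDA+NDST3 replicate 2), Gda for the same contrast (-0.48 without sham replicate 1 to 0.82 without sham replicate 2), and Il1r2 for NDST3 against lesion (-0.77 to 0.088, the latter without 6-OHDA+NDST3 replicate 1). Against sham, they were Trem1 (-0.32 without 6-OHDA+NDST3 replicate 2 to 2.86 without replicate 1) and Il1r2 (-0.20 without sham replicate 1, and -0.30 without 6-OHDA+NDST3 replicate 2 to 0.78). None of these genes passed the test in those contrasts. A single library per group, with no cell numbers, sets the limit for every single-cell value.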
